A study of Homo sapiens with 4 samples.

Results

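The knockdown of HOXB9 was compared between the human gastric carcinoma lines AGS and MKN1, to see which genes responded alike in both lines, in one line only, or in opposite directions. The table of the study holds 57815 rows, and 8343 of them were compared: those listed at 5 FPKM or more in an AGS library and in an MKN1 library (FPKM scales fragments by transcript length and library depth). For each row the change in a line was log2((siHOXB9 FPKM + 1)/(siScramble FPKM + 1)), and the difference between the lines was the MKN1 change minus the AGS change. A gene responded when its change was at least 2-fold (1 on the log2 scale) in at least 1 line. It responded alike when the other line moved in the same direction by at least 1.5-fold, and in opposite directions when the other line moved the other way by at least 1.5-fold. It responded in one line only when the other line moved by less than 1.5-fold and the lines differed by at least 1. The rest of the responding genes are called intermediate.

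The 4 groups were each line with either siRNA, and each group was 1 library of polyadenylated RNA. The labels give the genotype as WT for the siScramble cells and as a knockdown of HOXB9 for the siHOXB9 cells. All 4 groups were transfected with Lipofectamine 2000, so the controls also carried a scrambled small interfering RNA (siRNA). How many siRNAs were used, their sequences and the time after transfection are not stated in the labels. Because each group was 1 library, no difference between the lines could be tested, and differences are given as values. Nothing in the labels tells whether the libraries came from separate cultures or days.

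HOXB9 is a posterior homeobox transcription factor that patterns the axis of the embryo and is re-expressed in several carcinomas. Homeobox proteins bind short, AT-rich DNA words together with cofactors of the PBX and MEIS families, and which genes they reach depends on the chromatin and the partners of the cell. Groups of genes such as the mitotic genes, the amino acid genes driven by the stress factor ATF4 and the genes of mitochondrial DNA are each regulated together, and they were followed as lists.

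HOXB9 itself was listed at 16.4 and 4.44 FPKM in the siScramble and siHOXB9 libraries of AGS and at 1.14 and 0.218 FPKM in those of MKN1. The siHOXB9 value was 27.0% of the siScramble value in AGS and 19.1% in MKN1, so the labels hold in both lines. At no more than 1.14 FPKM in MKN1 the gene was under the level needed for the comparison and is no member of it. KRT8, a keratin of simple epithelia, was at 1566 and 1879.6 FPKM in AGS siScramble and siHOXB9 and at 1077 and 1229.9 FPKM in MKN1. EPCAM, an epithelial adhesion molecule, was at 328 and 359 FPKM in AGS but at 2.14 and 2.70 FPKM in MKN1, and KRT19 was at 838 and 1001 against 2.02 and 2.66 FPKM. CDH1, the epithelial cadherin, stayed at or under 3.28 FPKM in all 4 libraries. KRT18, another keratin of simple epithelia, was at 743 and 837 FPKM in AGS and at 654 and 721 FPKM in MKN1. EPCAM and KRT19 were thus low in MKN1 only and CDH1 in both lines, while KRT8 and KRT18 were high in both. Of 10 immune markers 2 reached 1 FPKM, and their sum of 2200 FPKM in AGS siScramble was nearly all LYZ at 2197 FPKM. The summed fibroblast markers ranged from 28.4 to 74.3 FPKM over the 4 libraries, the endothelial markers from 0.0466 to 2.16 FPKM, and the erythroid markers did not pass 0.590 FPKM. The part of these marker levels in the results was not tested.

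The median gene moved by -0.08 in AGS and by 0.11 in MKN1, so that the median difference between the lines was 0.18 on the log2 scale. Changes are given as deposited, and several counts that depend on this shift are also given after each line was centred on its median gene. The 2-fold counts of each line and the shares by direction over all genes are given as deposited only. Estimated from the steps between low FPKM values, the siScramble and siHOXB9 libraries held 12960000 and 12500000 fragments in AGS, and 11560000 and 10580000 in MKN1. At 5 FPKM in all 4 libraries a transcript of 2 kb then has 105.8 to 129.6 fragments. Counting error alone then gives the difference between the lines an SD of 0.27 on the log2 scale, worked out without the pseudocount. Rows near the level rule were CKMT1B, RPL4P4 and GPX3 just inside it, with differences of 0.75, 0.33 and 0.71, and POLR3B, PARP16 and RP5-1024G6.2 just outside it, with differences of 0.39, -0.05 and -0.63.

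The changes of the lines were only loosely related. Of the 8343 genes, 52.6% moved in the same direction in both lines. That share also reflects the opposite shifts of the median gene, with 61.1% of all genes below 0 in AGS and 67.1% above 0 in MKN1. Across genes Pearson's r was 0.15 and Spearman's rho 0.24. Those coefficients describe genes of the same 4 libraries, which are not independent replicates. In AGS 45 genes were at least 2-fold higher with siHOXB9 (0.539% of the genes compared) and 111 were at least 2-fold lower (1.33%). In MKN1 83 were at least 2-fold higher (0.995%) and 86 at least 2-fold lower (1.03%). In all, 288 genes responded in at least 1 line (3.45%). The lines differed by at least 1 in 328 genes (3.93%), of which 235 were more positive in MKN1 and 93 more negative. After centring on the median gene that split became 118 to 165, after scaling to the same summed FPKM 133 to 150, and after quantile normalization 143 to 142. The excess of positive differences thus rested on the scale of the libraries.

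**Figure D1:**
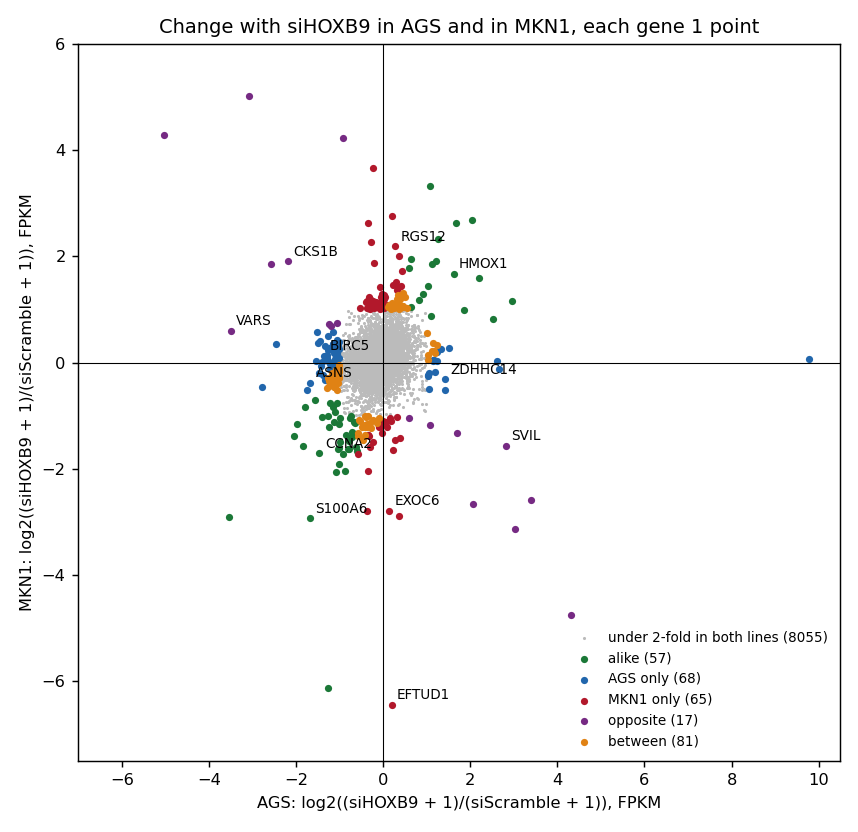
The horizontal axis is the change with siHOXB9 in AGS and the vertical axis the change in MKN1, both as log2((siHOXB9 + 1)/(siScramble + 1)) of FPKM values; each point is 1 of the 8343 genes, coloured by class. Most points lie under 2-fold in both lines, 57 genes responded alike, 68 in AGS only, 65 in MKN1 only, 17 in opposite directions and 81 were intermediate.

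Of the genes that responded at least 2-fold in one line, more stayed within 1.5-fold in the other than passed it in either direction. Small changes were the rule for any gene, since 8055 of the 8343 were under 2-fold in both lines. The 1.5-fold counts are a description, without the share of all genes past that limit. Of the 111 genes at least 2-fold lower in AGS, 22 were at least 1.5-fold lower in MKN1 too, 81 stayed within 1.5-fold and 8 were at least 1.5-fold higher. Of the 45 genes at least 2-fold higher in AGS, 13 were at least 1.5-fold higher in MKN1, 25 stayed within 1.5-fold and 7 were at least 1.5-fold lower. Starting from MKN1, 33 of the 86 lower genes were at least 1.5-fold lower in AGS, 45 stayed within 1.5-fold and 8 were higher. Of the 83 genes at least 2-fold higher in MKN1, 15 were at least 1.5-fold higher in AGS, 63 stayed within 1.5-fold and 5 were lower. In 3 of these 4 sets the share of genes with the same direction in the other line was above the share over all genes. Of those lower in MKN1 76.7% were also below 0 in AGS, against 61.1% of all genes, and of those lower in AGS 59.5% were below 0 in MKN1, against 32.9% of all genes. Of those higher in MKN1 61.4% were above 0 in AGS, against 38.9% of all genes. For the genes higher in AGS the share above 0 in MKN1 was 66.7%, against 67.1% of all genes.

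Genes that were higher with siHOXB9 in both lines numbered 18 (0.216% of the genes compared), and 8 of them were called unambiguous here, meaning protein-coding, present on 1 row and free of exon bases shared with another gene. HMOX1 (ENSG00000100292.16, chr22:35380361-35394214 on GRCh38), the heme-degrading enzyme, was listed at 47.8 FPKM without the knockdown and 148 FPKM with it in AGS, and at 15.1 and 50.2 FPKM in MKN1. It was about as much higher in each line, with changes of 1.61 and 1.67. SLC38A7, a lysosomal amino acid transporter, went from 10.04 to 21.4 FPKM in AGS and from 9.93 to 28.7 FPKM in MKN1. PBXIP1, which binds the PBX cofactors of homeobox proteins, went from 42.6 to 81.2 FPKM in AGS and from 9.30 to 24.1 FPKM in MKN1. CDKN2B, an inhibitor of the cyclin D kinases, went from 14.9 to 33 FPKM in AGS and from 7.21 to 14 FPKM in MKN1. In each of these genes both siHOXB9 libraries lay above the siScramble library of the same line.

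Of the other 4 unambiguous genes that were higher in both lines, 3 differed by more than 1 between them. TMEM164 was changed by 2.53 in AGS (5.01 to 33.7 FPKM) and by 0.82 in MKN1 (4.67 to 9.02 FPKM). PDSS2, an enzyme of the side chain of coenzyme Q, was changed by 0.64 in AGS (7.56 to 12.4 FPKM) and by 1.95 in MKN1 (5.06 to 22.4 FPKM). For LMBR1L the values were 28 to 42.9 FPKM in AGS and 6.19 to 23.6 FPKM in MKN1. HDHD1, with a difference of 0.40, went from 11.8 to 19 FPKM in AGS and from 9.47 to 20.6 FPKM in MKN1, and after centring it was under 2-fold in both lines. Among the other rows ZHX3, a zinc finger and homeobox protein whose exons overlap PLCG1 on the opposite strand, went from 2.68 to 14 FPKM in AGS and from 4.72 to 36 FPKM in MKN1. After centring 17 of the 18 genes kept this class.

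Genes that were lower in both lines numbered 39 (0.467%), of which 16 were unambiguous. SET (ENSG00000119335.16, chr9:128683424-128696400), a histone chaperone and inhibitor of protein phosphatase 2A, went from 321.4 to 151 FPKM in AGS and from 443 to 106 FPKM in MKN1. DEK (chr6:18223868-18264823), a chromatin protein, went from 144 to 58.9 FPKM in AGS and from 139 to 68.6 FPKM in MKN1. GMNN, geminin, which holds back the licensing of replication origins, went from 30.3 to 14.6 FPKM in AGS and from 83.5 to 26.6 FPKM in MKN1. In all 3 genes both siHOXB9 libraries lay under both siScramble libraries. GMNN and many transcripts named below belong to dividing cells, and in bulk RNA fewer such cells and less transcript per cell cannot be told apart. LCOR, a corepressor of nuclear receptors, had the largest change shared by both lines among the unambiguous genes, from 16.4 to 3.23 FPKM in AGS and from 6.46 to 1.87 FPKM in MKN1. GLO1, which detoxifies methylglyoxal, went from 94 to 46.2 FPKM in AGS and from 60.3 to 15.3 FPKM in MKN1. CMPK1, a kinase of pyrimidine nucleotides, went from 82.2 to 42.7 and from 54.4 to 15.7 FPKM. DOCK9, an activator of the GTPase CDC42, went from 29 to 12.9 and from 13.9 to 6.84 FPKM, and the zinc finger gene ZNF595 from 99.8 to 53.8 and from 12.2 to 2.20 FPKM. These genes differed in where the change was larger, since DOCK9, DEK and LCOR were lower by more in AGS and the other unambiguous genes named here by more in MKN1.

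Among the other rows that were lower in both lines was S100A6, a small calcium-binding protein. It was listed at 1940.1 and 603 FPKM in the siScramble and siHOXB9 libraries of AGS and at 748 and 97 FPKM in those of MKN1. Its change was -1.69 in AGS and -2.94 in MKN1. CCNA2, cyclin A of S phase and mitosis, went from 36.2 to 12.48 FPKM in AGS and from 37.6 to 10.8 FPKM in MKN1. It shares exon bases with EXOSC9 on the opposite strand, as S100A6 does with another gene, and the library protocol names no step that keeps the strand. After centring 34 of the 39 genes kept this class.

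The only test the design allows asks whether the siRNA effect stands out from the disagreement of the lines. With a limma model of log2(FPKM + 1) on siRNA and line, 1 of 13758 genes passed at an adjusted p under 0.05 (0.00727%), and 980 genes had an unadjusted p under 0.05. The row that passed, RP11-192N10.2, went from 10.6 FPKM in AGS siScramble and 6.51 FPKM in MKN1 siScramble to a listed 0 in both siHOXB9 libraries (limma, adjusted p = 0.0358). It did not pass with a pseudocount of 0.1 FPKM or after quantile normalization, where limma made 0 calls and 834 and 1061 genes had an unadjusted p under 0.05. HMOX1 had an effect of 1.64 (SE 0.17) over both lines and an adjusted p of 0.0557 by limma, CCNA2 one of -1.58 (SE 0.19, adjusted p = 0.0884) and S100A6 one of -2.31 (SE 0.29, adjusted p = 0.104). Fitted only to the 8343 rows compared here, limma called 62 (0.743%), with 19 higher and 43 lower. The fit has 1 residual degree of freedom, so its calls rest on a variance shared over all genes.

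**Figure D2:**
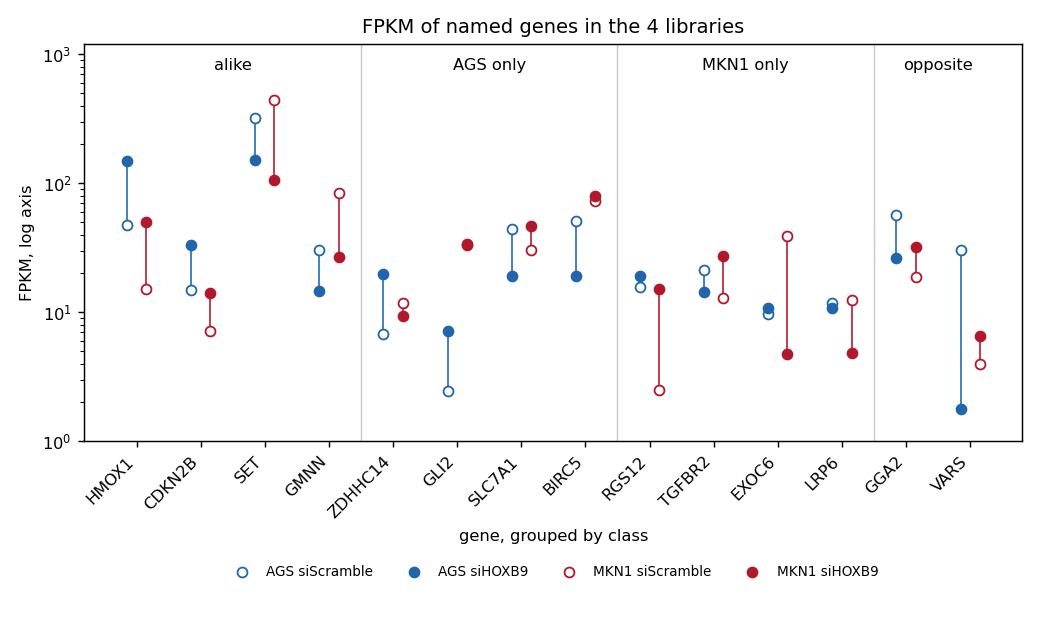
The horizontal axis lists 14 named unambiguous genes by class and the vertical axis gives FPKM on a log axis, with 1 point for each library (open, siScramble; filled, siHOXB9; blue, AGS; red, MKN1) and a line joining the libraries of a cell line. HMOX1 goes up and SET down in both lines, BIRC5 differs in AGS only, EXOC6 in MKN1 only, and GGA2 and VARS move in opposite directions.

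Genes that were lower in AGS only numbered 51 (0.611%), the most of the 8 classes other than intermediate, and 17 were higher in AGS only (0.204%). This balance depended on the scale: after centring it was 29 lower and 27 higher, after scaling to the same sum 28 and 31, and after quantile normalization 40 and 30. Of the 51 lower genes 27 kept the class after centring, and 16 fell under 2-fold in both lines. SLC7A1 (ENSG00000139514.12, chr13:29509410-29595688), the main importer of arginine and lysine, went from 44.2 to 19.2 FPKM in AGS, while in MKN1 it went the other way, from 30.6 to 46.2 FPKM. Its MKN1 change of 0.578 was just under the 1.5-fold limit of 0.585, above which it would count as opposite. BIRC5 (chr17:78214186-78225636), survivin of the chromosomal passenger complex, went from 50.7 to 19.1 FPKM in AGS and from 72.6 to 79.4 FPKM in MKN1. EIF4EBP1, a repressor of cap-dependent translation, went from 188 to 77.1 FPKM in AGS and from 183 to 215 FPKM in MKN1. So the siScramble levels of EIF4EBP1 in the lines were alike, and the AGS siHOXB9 library stood alone below the other 3.

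Other unambiguous genes of this class had different levels in the lines. RAD18, a ubiquitin ligase of post-replication repair, went from 6.73 to 2.08 FPKM in AGS and from 26.2 to 32.7 FPKM in MKN1. TNS4, a tensin of focal adhesions, went from 184 to 75.1 FPKM in AGS, where it was far more abundant, and from 19.6 to 21.6 FPKM in MKN1. EDEM3, which acts on misfolded glycoproteins, went from 21.3 to 8.62 and from 5.06 to 6.37 FPKM. In each of them the MKN1 siHOXB9 library was slightly above its siScramble library. FAM76B went from 9.65 to 3.44 and from 6.24 to 9.24 FPKM. CENPM, a centromere protein, went from 33.3 to 16 and from 69.5 to 90.7 FPKM, but it was under 2-fold in both lines after centring.

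The targets of ATF4, the factor that raises amino acid synthesis and transport under stress, had 33 members among the genes compared, and 9 of them were lower in AGS only (27.3%, against 0.611% of all genes compared). Of these 9, 7 kept the class after centring, 6 after scaling to the same sum and 8 after quantile normalization. The 9 genes were SLC7A1, EIF4EBP1, DDIT4, SLC7A5, PSAT1, ASNS, PSPH, SLC1A5 and MTHFD2, and no member was in another class. ASNS, asparagine synthetase, had the largest AGS change of them, from 76 to 23.1 FPKM, against 14.4 to 10.8 FPKM in MKN1. PSAT1 and PSPH, of serine synthesis, went from 167 to 61.1 and from 39.2 to 13.6 FPKM in AGS, and from 92.8 to 89 and from 17.7 to 15.3 FPKM in MKN1. DDIT4, an inhibitor of mTORC1, went from 178 to 60.9 FPKM in AGS and from 284 to 288 FPKM in MKN1. SLC7A5, the importer of leucine, went from 138 to 64.8 FPKM in AGS and from 792 to 992 FPKM in MKN1. Over the list the median change was -0.70 in AGS and 0.07 in MKN1, against -0.08 and 0.11 over all genes. Of the 33 members 30 were below 0 in AGS and 12 in MKN1, which became 29 and 18 after centring.

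Of 59 mitotic genes all were below 0 in AGS, under each of the 3 scalings as well, with a median of -0.86. In MKN1 45 of the 59 were below 0, with a median of -0.18, and after centring 52 were, with a median of -0.29. CCNA2 was the 1 mitotic gene lower in both lines by the size rule. BIRC5, AURKB, PLK1 and BUB1B were lower in AGS only, 4 of 59 members (6.78%, against 0.611% of all genes), of which BIRC5 alone kept that class after centring. AURKB, a kinase of the same passenger complex, went from 85.4 to 38.9 FPKM in AGS and from 114 to 119 FPKM in MKN1. PLK1, a kinase of mitotic entry, went from 81.1 to 34 and from 133 to 122 FPKM, and BUB1B, of the spindle checkpoint, from 35.1 to 16.2 and from 59.4 to 57 FPKM. TOP2A, topoisomerase II, was lower by similar amounts in both lines, from 46.4 to 25.1 and from 42.8 to 25.2 FPKM, with changes of -0.86 and -0.74. CDC20, an activator of the anaphase-promoting complex, was intermediate, from 208 to 85.8 and from 339.5 to 276 FPKM.

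The replication genes split further between the lines. Of 52 members 51 were below 0 in AGS, with a median of -0.70. In MKN1 24 were below 0 and 28 above, with a median of 0.04, and after centring 31 were below and 21 above. RRM1, the large subunit of ribonucleotide reductase, went from 57.9 to 25.3 FPKM in AGS and from 136 to 161 FPKM in MKN1. MCM5, of the replicative helicase, went from 49.3 to 24.3 and from 78.1 to 96.9 FPKM, and GINS4, of the same helicase complex, from 12.47 to 6.36 and from 37.9 to 56 FPKM. CDT1, the origin licensing factor that geminin binds, was lower in AGS only, from 68.7 to 25.8 FPKM against 104 to 88 FPKM in MKN1, while geminin itself was lower in both. RFC5, a subunit of the clamp loader, was also lower in both, from 21.1 to 8.99 and from 41.9 to 22.9 FPKM. Of the 25 DNA repair and checkpoint genes 4 were lower in AGS only, against 0.611% of all genes compared, FANCD2 and XRCC3 among them. FANCD2 went from 15.2 to 6.28 FPKM in AGS and from 20.3 to 26.2 FPKM in MKN1. After centring 2 of these 4 kept the class.

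Promoters are shown for 5 of these genes because they hold words that ATF4 or the cell cycle repressor complexes are known to bind. Of the 8343 genes 6568 had a promoter in the RefSeq table (GRCh38.p14), which runs from 250 bases before the start to 50 after it, and words were searched on both strands and may overlap one another. The C/EBP-ATF response element was searched as TGATGNAA and the cell cycle homology region as TTTGAA. Each sequence is the 250 bases before the start, 5′ to 3′ on the strand of the gene, with the word in capitals. ASNS lies at chr7:97872409-97872658 on the minus strand with its word at -68 from the start, PLK1 at chr16:23678639-23678888 on the plus strand (-29), BUB1B at chr15:40160819-40161068 on the plus strand (-23), CDC20 at chr1:43358731-43358980 on the plus strand (-178 and -65) and DEK at chr6:18264531-18264780 on the minus strand (-9).
ASNS: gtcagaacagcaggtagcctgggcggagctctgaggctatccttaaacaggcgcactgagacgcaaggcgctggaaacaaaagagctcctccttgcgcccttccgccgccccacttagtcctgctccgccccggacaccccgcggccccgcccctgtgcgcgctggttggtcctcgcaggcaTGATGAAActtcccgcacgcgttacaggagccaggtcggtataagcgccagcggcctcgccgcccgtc
PLK1: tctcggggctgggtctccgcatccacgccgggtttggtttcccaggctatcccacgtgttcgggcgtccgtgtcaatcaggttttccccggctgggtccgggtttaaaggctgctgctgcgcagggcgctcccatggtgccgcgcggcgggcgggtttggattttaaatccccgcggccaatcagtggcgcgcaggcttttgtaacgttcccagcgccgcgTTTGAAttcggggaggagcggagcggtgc
BUB1B: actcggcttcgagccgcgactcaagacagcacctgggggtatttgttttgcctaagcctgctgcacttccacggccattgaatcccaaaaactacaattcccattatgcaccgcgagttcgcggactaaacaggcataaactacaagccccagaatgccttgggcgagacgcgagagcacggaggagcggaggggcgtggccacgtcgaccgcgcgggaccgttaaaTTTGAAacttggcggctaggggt
CDC20: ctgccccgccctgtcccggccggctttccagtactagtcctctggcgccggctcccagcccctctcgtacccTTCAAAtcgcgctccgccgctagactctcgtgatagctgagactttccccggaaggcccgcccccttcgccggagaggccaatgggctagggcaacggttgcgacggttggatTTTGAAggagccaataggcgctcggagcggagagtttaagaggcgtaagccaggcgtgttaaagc
DEK: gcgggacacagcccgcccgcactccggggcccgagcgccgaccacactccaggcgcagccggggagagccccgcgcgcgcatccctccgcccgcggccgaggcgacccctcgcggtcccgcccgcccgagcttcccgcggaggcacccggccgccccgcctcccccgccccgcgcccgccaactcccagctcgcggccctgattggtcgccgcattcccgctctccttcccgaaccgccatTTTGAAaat

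The cell cycle word was held by the promoters of 7 of the 30 genes lower in AGS only that had one (23.3%) and of 17 of the 64 intermediate genes (26.6%), against 8.80% of all genes compared and 15.4% of the 27305 promoters of the table. Among the genes lower in both lines it was in 4 of 31 (12.9%). The ATF word was in 3 of the 30 genes lower in AGS only (10%), namely ASNS, SLC7A1 and CENPW. It was in none of the 31 genes lower in both lines and in 1 of the 8 genes higher in AGS only. Among the genes higher in MKN1 only 1 of 28 held it, and among the intermediate genes 1 of 64. Of all genes compared 1.45% held it, and of the 27305 promoters 3.67%. The ATF4 targets PSAT1, DDIT4, SLC7A5, SLC1A5 and MTHFD2, also lower in AGS only, did not hold it. CCAAT, the CCAAT box, was in 17 of the 30 (56.7%) and in 15 of the 31 (48.4%), against 37.9% of all genes compared. TTTATNG, a word bound by posterior HOX proteins, was in 5.44% of the promoters of all genes compared and 10.1% of the 27305 promoters. It was in 2 of the 30 genes lower in AGS only and 1 of the 8 higher in AGS only. Of the 64 intermediate genes 6 held it (9.38%). So did 1 of the 3 opposite genes with AGS higher and 0 of the 4 with MKN1 higher. It was in none of the 28 genes higher or 14 lower in MKN1 only. It was also in no promoter of the 9 genes higher or the 31 lower in both lines. At a share of 5.44% such small sets cannot show a lack of the word. A word in a promoter is a description and no measure of binding.

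Genes that were higher in AGS only often had little transcript in AGS siScramble, with a median of 6.80 FPKM there against 18.9 FPKM in MKN1 siScramble. The siScramble level is part of the change, so this is a description of the class. GLI2 (ENSG00000074047.21, chr2:120735623-120992653), a transcription factor of Hedgehog signalling, went from 2.46 to 7.21 FPKM in AGS, whereas MKN1 held 33.3 and 33.9 FPKM. ANXA1, a phospholipid-binding annexin, went from 12.9 to 33.8 FPKM in AGS and from 240.1 to 287 FPKM in MKN1. FRS2, an adaptor of fibroblast growth factor receptors, went from 8.08 to 19.1 FPKM in AGS and from 19.1 to 19.5 FPKM in MKN1. With siHOXB9 the AGS level of FRS2 thus equalled that of MKN1, while GLI2 and ANXA1 stayed below it. ZDHHC14, a palmitoyltransferase, had the largest difference of the 7 unambiguous genes, from 6.80 to 19.96 FPKM in AGS and from 11.8 to 9.29 FPKM in MKN1. BTRC, the substrate receptor of a ubiquitin ligase, went from 5.19 to 13.6 and from 7.30 to 8.58 FPKM. UEVLD went from 3.09 to 7.4 and from 9.47 to 7.84 FPKM, and SH3BGRL from 2.64 to 6.50 and from 17.9 to 15.5 FPKM. After centring 15 of the 17 genes kept this class. Because centring raises every AGS change by 0.08, none of them could fall under 2-fold by it.

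Genes that were higher in MKN1 only numbered 41 (0.491%), and 24 were lower in MKN1 only (0.288%). After centring these became 23 and 39, after scaling to the same sum 27 and 36, and after quantile normalization 24 and 33, so which direction held more genes depended on the scale. RGS12 (ENSG00000159788.19, chr4:3293028-3439913), which speeds GTP hydrolysis by G proteins, went from 2.51 to 15.1 FPKM in MKN1 and from 15.7 to 19.2 FPKM in AGS. The MKN1 level thus approached the AGS level. EEPD1 went from 2.24 to 9.74 FPKM in MKN1 and from 5.67 to 8.03 FPKM in AGS, and KIAA1211 from 1.29 to 5.33 FPKM and from 9.58 to 11.3 FPKM. In most genes of this class MKN1 started below AGS, with medians of 3.34 FPKM in MKN1 siScramble and 12.0 FPKM in AGS siScramble. The siScramble level is part of the change, and some members met the level rule in MKN1 only through the siHOXB9 library. The low start is thus a description of the class and no result about its genes. SLC25A13, the mitochondrial aspartate-glutamate carrier, started level, from 26.9 to 64.7 FPKM in MKN1 and from 24.4 to 23.7 FPKM in AGS. GPR157, an orphan receptor, went from 7.86 to 20.6 FPKM in MKN1 and from 7.48 to 7.36 FPKM in AGS, and TMEM143 from 3.34 to 8.46 and from 11 to 8.96 FPKM.

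The class of some other genes depended on the scale. TGFBR2, the type II receptor of transforming growth factor beta, went from 12.9 to 27.2 FPKM in MKN1 and from 21.4 to 14.5 FPKM in AGS. SDC3, a heparan sulfate proteoglycan, went from 6.24 to 14.2 and from 67 to 54.3 FPKM. ITGA5, the fibronectin receptor subunit, went from 72.5 to 150.5 FPKM in MKN1 and from 31.5 to 28 FPKM in AGS. After centring and after quantile normalization TGFBR2, SDC3 and ITGA5 were no longer in the class, and after scaling to the same sum SDC3 alone of them was. HMGA2, an architectural chromatin protein with exons shared with another gene, had one of the larger changes, from 3.91 to 22.8 FPKM in MKN1 and from 14.8 to 12.1 FPKM in AGS. ZNF28 went from 1.51 to 31 FPKM in MKN1 and from 13 to 10.9 FPKM in AGS, but it shares exon bases with ZNF468. In all 23 of the 41 genes kept this class after centring.

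Genes that were lower in MKN1 only kept their class in 24 of 24 cases after centring. Because centring lowers every MKN1 change by 0.11, none of them could fall under 2-fold by it. EXOC6 (ENSG00000138190.16, chr10:92834713-93059493), a subunit of the exocyst that tethers secretory vesicles, went from 38.9 to 4.78 FPKM in MKN1 and from 9.63 to 10.8 FPKM in AGS. LRP6, a coreceptor of WNT ligands, went from 12.6 to 4.82 FPKM in MKN1 and from 11.7 to 10.8 FPKM in AGS. In both genes the MKN1 siHOXB9 library was the lowest of the 4. SLC38A9, the lysosomal arginine sensor of the mTORC1 pathway, went from 8.29 to 3.30 FPKM in MKN1 and from 14.5 to 14.5 FPKM in AGS. LAMTOR3, of the Ragulator complex that SLC38A9 binds, went from 11.3 to 4.65 FPKM in MKN1 and from 21.7 to 22.8 FPKM in AGS. Both were thus lower in MKN1 siHOXB9, and in AGS their changes were 0.01 and 0.07. WDFY1 went from 6.80 to 1.58 and from 16 to 12.7 FPKM in MKN1 and AGS. MTMR6, a phosphoinositide phosphatase, went from 7.83 to 1.67 and from 13.6 to 8.74 FPKM, WBP5 from 38.2 to 13 and from 39.8 to 33.5 FPKM, and PLCB4, a phospholipase C, from 5.45 to 2.13 and from 13.3 to 15 FPKM. MTMR6 had an AGS change of -0.58, just under the 1.5-fold limit for the other line. Among the other rows EFTUD1 was listed at 898 FPKM in MKN1 siScramble and at 9.31 FPKM in MKN1 siHOXB9, against 7.5 and 8.72 FPKM in AGS, so that a single library stood far above the other 3.

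Opposite responses were rare. In 8 genes AGS was higher and MKN1 lower (0.0959%), and in 9 genes MKN1 was higher and AGS lower (0.108%). After centring these became 15 and 6, after scaling to the same sum 11 and 7, and after quantile normalization 10 and 7. Of the 17, 3 were unambiguous genes (17.6%, against 44.8% of all genes compared) and 9 were protein-coding (52.9%, against 93.1%). In the other classes, intermediate included, 29.3% to 51.9% were unambiguous and 58.8% to 88.9% protein-coding, so a low protein-coding share was not particular to opposite genes. A further trait was a value listed at 0 in a library, in 6 of the 17 (35.3%). A compared row at 0 has at least 5 FPKM in the other library of its line and so always responds. The 0.168% of all genes at 0 is thus no fair comparison. GGA2 (ENSG00000103365.15, chr16:23463542-23521995), a clathrin adaptor of the trans-Golgi network, went from 56.5 to 26.5 FPKM in AGS and from 18.9 to 32.3 FPKM in MKN1. VARS, valyl-tRNA synthetase, went from 30.3 to 1.76 FPKM in AGS and from 4 to 6.58 FPKM in MKN1. MSRA, which repairs oxidised methionine, went from 2.33 to 6.06 FPKM in AGS and from 15.3 to 6.18 FPKM in MKN1, where it ended at the AGS level. After centring MSRA kept its class, since the shift moves both of its changes further from 0. VARS became lower in AGS only, and GGA2 was under 2-fold in both lines.

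The other rows with opposite changes included larger differences. SVIL, supervillin, which links the membrane to actin, went from 8.37 to 64.8 FPKM in AGS and from 123 to 40.9 FPKM in MKN1, and it shares exon bases with SVIL-AS1. CKS1B had 2 rows: one went from 31.8 to 6.17 FPKM in AGS and from 6.51 to 27.1 FPKM in MKN1, and the other, the more abundant in every library, from 315 to 159 and from 336 to 316 FPKM, which is just under 2-fold in AGS. SPTLC1P1, a pseudogene, was listed at 0 in AGS siScramble and MKN1 siHOXB9, and at 7.20 and 7.74 FPKM in the remaining libraries. Of 61 responding rows with an expressed overlapping gene, 2 had such a gene that moved at least 2-fold the other way.

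Between the clear classes lay 81 genes (0.971%) whose larger change was at least 2-fold, whose other change was under 1.5-fold and whose lines differed by less than 1. Their median change was -0.41 in AGS and -0.25 in MKN1. Among them were 9 mitotic genes, 4 replication genes, INSIG1, ULK1 and CDKN1A. CDKN1A, p21, went from 165 to 178 FPKM in AGS and from 35.7 to 74.9 FPKM in MKN1. The CDK inhibitors as a list had 5 members, and all 5 were above 0 in MKN1, with a median of 0.74, while 3 were above 0 in AGS, with a median of 0.11. ULK1, a kinase that starts autophagy, went from 19 to 24.1 and from 17.5 to 38.3 FPKM, and INSIG1, a brake on cholesterol synthesis, from 114 to 51.9 and from 44.3 to 32 FPKM.

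**Figure D3:**
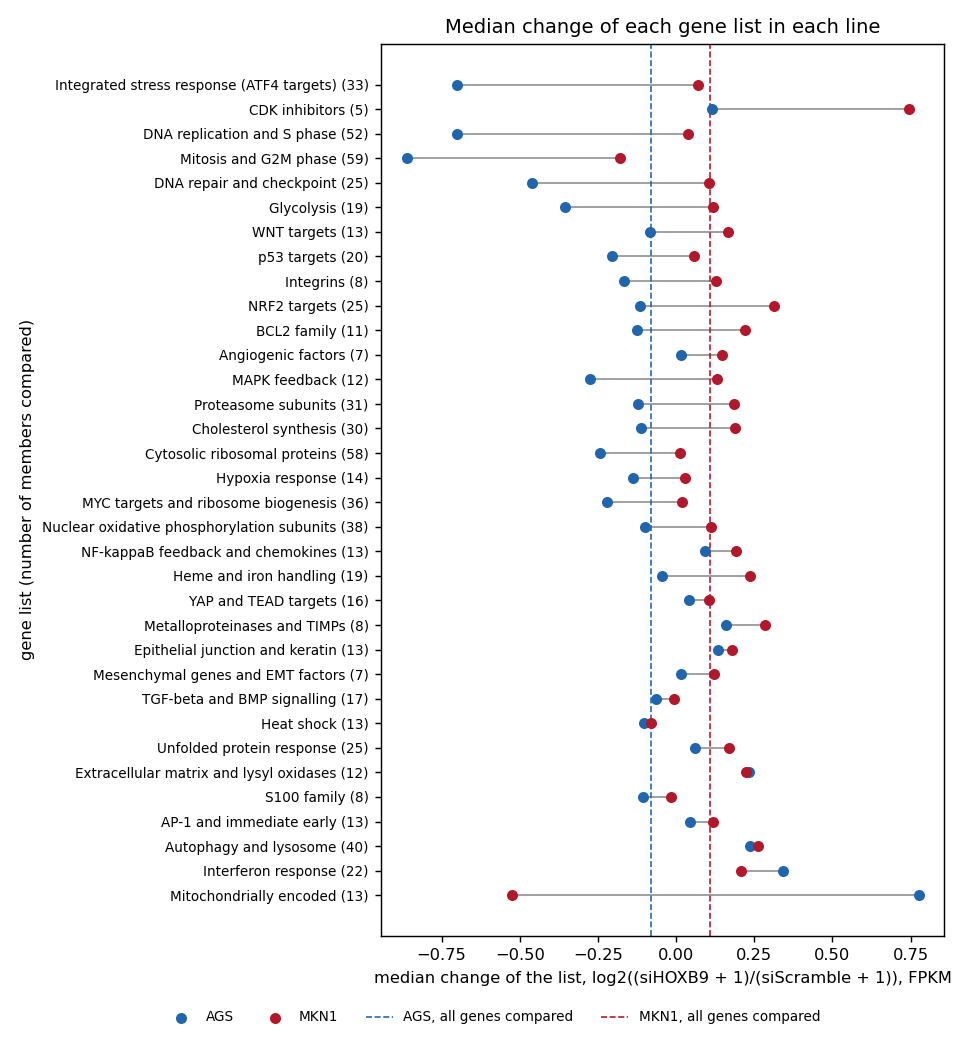
The horizontal axis is the median change of a gene list on the log2 scale and the vertical axis names the 34 lists with at least 5 members, ordered by their median difference between the lines; blue points are AGS, red points MKN1, and dashed lines the medians of all genes compared. The ATF4, replication and mitotic lists lie furthest to the left in AGS, and the mitochondrially encoded list is the one whose medians lie on opposite sides of 0 with AGS higher.

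The genes of mitochondrial DNA were the list with the largest difference between the lines. All 13 were higher in AGS siHOXB9 than in AGS siScramble and lower in MKN1 siHOXB9 than in MKN1 siScramble, also after centring, after scaling to the same sum and after quantile normalization. The median change was 0.78 in AGS and -0.52 in MKN1, and the difference ranged from -0.58 for MT-ND3 to -1.87 for MT-ND6. MT-CO1, a subunit of cytochrome c oxidase, was at 919 and 1706 FPKM in AGS siScramble and siHOXB9 and at 525 and 365 FPKM in MKN1. MT-ND6, of complex I and the gene on the light strand, went from 257 to 501 FPKM in AGS and from 82.3 to 43.4 FPKM in MKN1. MT-ATP6, of ATP synthase, went from 675 to 1084 and from 413 to 243 FPKM. MT-ND4L alone passed 2-fold, with an AGS change of 1.04, and it overlaps MT-ND4. Summed, the 13 genes made up 0.847% of the FPKM in the siScramble library of AGS and 1.53% with siHOXB9, and 0.612% and 0.396% in MKN1. Mitochondrial genes are transcribed together as long precursors, so the 13 values are not independent of each other.

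The oxidative phosphorylation subunits encoded in the nucleus did not follow. Their 38 members had medians of -0.10 in AGS and 0.11 in MKN1, about those of all genes, and after centring the median difference was 0.00. No member was in a class.

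**Figure D4:**
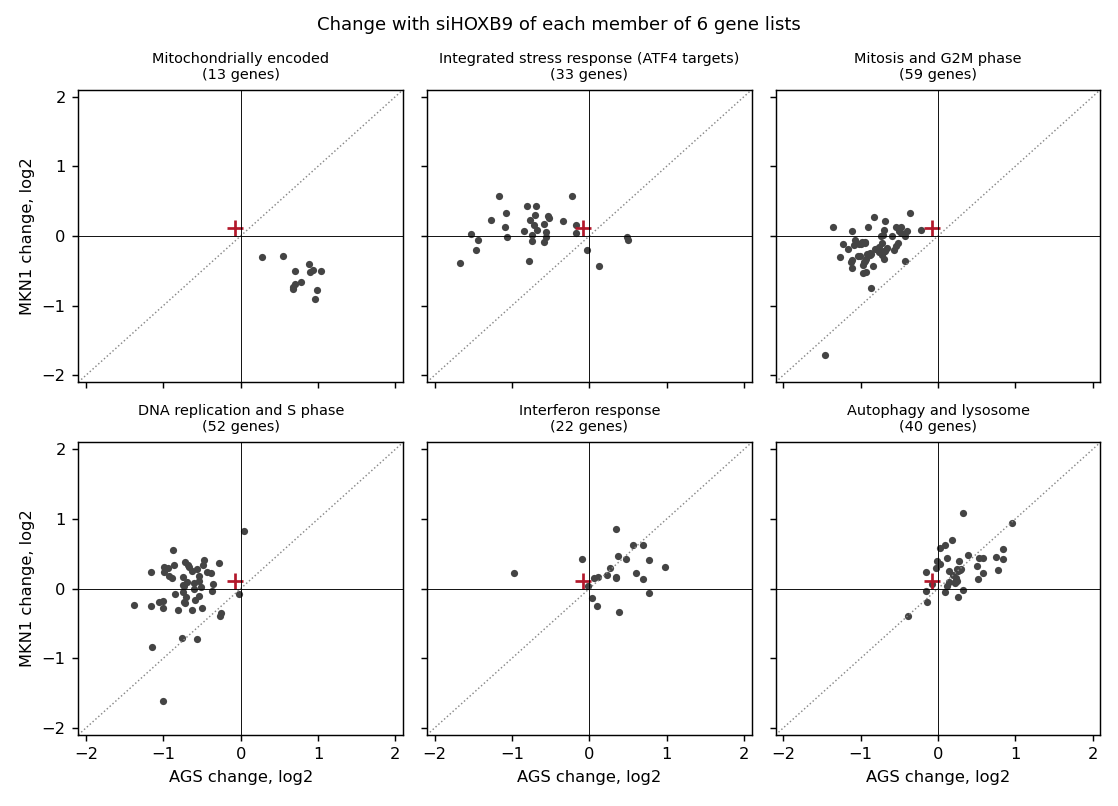
The 6 panels plot each member of a gene list, with the change in AGS on the horizontal axis and the change in MKN1 on the vertical axis, both log2; the dotted line marks equal change and the red cross the median of all genes compared. Mitochondrially encoded genes fall in the lower right corner, ATF4 targets, mitotic and replication genes to the left, and interferon and lysosome genes near or along the line of equal change. Changes are as deposited, and after centring most interferon and lysosome genes were more positive in AGS.

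Interferon and lysosome genes mostly had changes of the same direction in both lines. Over all 8343 genes 2442 were above 0 in both lines as deposited and 1945 below 0 in both. Of 22 interferon response genes 15 were above 0 in both lines and none below 0 in both, with medians of 0.34 in AGS and 0.21 in MKN1. After centring the medians were 0.42 in AGS and 0.10 in MKN1, and 19 of the 22 genes were more positive in AGS. STAT2, a factor of the interferon signal, went from 22.5 to 37.1 FPKM in AGS and from 6.37 to 10.4 FPKM in MKN1, and IFI6, an interferon-induced protein, from 309.6 to 457 and from 19.6 to 30.8 FPKM. OASL was higher in AGS by more, from 26.9 to 53.8 against 9.22 to 11.7 FPKM. IFITM2 went against the list in AGS, from 70.8 to 35.4 FPKM in AGS and from 243 to 285 FPKM in MKN1. No interferon gene passed the size rule in either line. Of 40 autophagy and lysosome genes 30 were above 0 in both lines and 27 after centring. Their medians were 0.24 in AGS and 0.26 in MKN1. After centring the medians were 0.32 in AGS and 0.15 in MKN1, and 31 of the 40 genes were more positive in AGS. OSTM1, which pairs with a chloride transporter of lysosomes, went from 12.2 to 24.5 FPKM in AGS and from 12.46 to 24.7 FPKM in MKN1. TPP1, a lysosomal peptidase, went from 44 to 79.2 and from 47.6 to 71.4 FPKM.

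The NRF2 targets, which answer to oxidative stress, split. HMOX1 was higher in both lines, but GSR, glutathione reductase, was lower in both, from 91 to 56.4 FPKM in AGS and from 79.5 to 54.8 FPKM in MKN1. GCLC and GCLM, the subunits of glutathione synthesis, were lower in AGS, from 24.3 to 19.6 and from 13.9 to 9.94 FPKM, and higher in MKN1, from 29.8 to 52.8 and from 18.5 to 27.4 FPKM. Of these genes HMOX1 alone reached 2-fold in a line. Over the 25 members the medians were -0.12 and 0.31, against -0.08 and 0.11 over all genes. Below 0 in AGS and above 0 in MKN1 were 12 members, which became 8 after centring. As deposited 3153 of all 8343 genes had that pattern too, so it was common over all genes.

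Glycolysis genes were mostly below 0 in AGS and near 0 in MKN1. Of 19 members 16 were below 0 in AGS, also after centring, with a median of -0.36, and 15 were above 0 in MKN1, 11 after centring, with a median of 0.12. SLC2A1, the glucose importer, went from 544 to 403 FPKM in AGS and from 261 to 351 FPKM in MKN1, and HK1, a hexokinase, from 28 to 16.1 and from 52.3 to 48.3 FPKM. The cytosolic ribosomal proteins were below 0 in AGS in 56 of 58 cases, with a median of -0.24, and in MKN1 in 21, with a median of 0.01. After centring 51 of the 58 were below 0 in MKN1, so the direction there follows the scale. Proteasome subunits and the BCL2 family had median differences of 0.31 and 0.34, which fell to 0.12 and 0.15 after centring. BAX, an effector of apoptosis, went from 997 to 988 FPKM in AGS and from 180.3 to 312 FPKM in MKN1.

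Several lists had a single gene in a class, CANX and ETV4 among them. S100A4, MEIS3, MEIS2 and HOXC13, named after them, were under the 2-fold size rule in both lines, S100A4 only just in AGS. CANX, a chaperone of the endoplasmic reticulum, was lower in both lines, from 330.0 to 191 FPKM in AGS and from 427 to 152 FPKM in MKN1, while the 25 unfolded protein response genes had medians of 0.06 and 0.17. ETV4, a factor downstream of MAP kinase signalling, was lower in AGS only, from 58.3 to 23.5 against 66.7 to 67.8 FPKM. S100A4, another member of the S100 family, was lower in AGS, from 77.4 to 38.2 FPKM, and nearly level in MKN1, from 1555 to 1459 FPKM, unlike S100A6, which was lower in both. Among the cofactors of HOX proteins MEIS3 went from 39.6 to 63.3 FPKM in AGS and from 7.33 to 11.6 FPKM in MKN1, and MEIS2 from 8.78 to 4.24 and from 8.04 to 5.63 FPKM. One other HOX gene met the level rule, HOXC13, which went from 5.26 to 4.26 FPKM in AGS and from 16.2 to 20.6 FPKM in MKN1.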

How the data were processed

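The authors deposited 1 table of FPKM values by gene symbol, with 1 column for each of the 4 libraries. Genome builds GRCh38 and hg38 are named per the submitters' processing notes. Which aligner, counting tool and annotation were used is not given in the sources used here. Symbols were joined to GENCODE release 29: 7638 of the 8343 rows by symbol, 332 by an older symbol and 373 not at all. The labels' protocols name poly-T beads and random primers, and no step that keeps the strand. Members, lists, classes and named genes were chosen with earlier results of these data known. Each row stayed its own feature. Changes used a pseudocount of 1 FPKM, which understates changes of low genes. Named genes were HOXB9, in each class the first 8 unambiguous genes and 5 other rows (by the smaller change, or by the difference for one line only), and in each list up to 4 members with the largest difference and 2 with the largest shared change. Class members and a further few genes of a count are named too. A list was described by its counts and medians without a test, in 39 lists and 4 marker lists.

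The limma fit (limma 3.58.1, R 4.3.3) used log2(FPKM + 1), an additive model of line and siRNA with an intensity trend, rows at 1 FPKM or more in at least 2 libraries, two-sided tests and Benjamini-Hochberg adjustment at 0.05. Other steps used Python 3.11.15, pandas 2.3.3 and numpy 2.4.6, and both parts were tested on simulated data. The alternatives were other pseudocounts, level rules, scalings, class limits and fits. Depth is estimated, since the deposited table gives no counts, and intervals cover counting error only. Some genes of the lists are not reported here by name.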

Additional observations from a re-analysis of the deposited data

Results flagged for a closer look

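The rows below moved in opposite directions in the lines, and none of these differences was tested, because each group is 1 library. Of the rows higher in AGS and lower in MKN1, the difference (MKN1 change minus AGS change, log2) was -9.08 for a row named by a clone with no gene in release 29, -6.16 for SPTLC1P1, -5.98 for AC018638.1, -4.73 for RP11-508N12.4, -4.37 for SVIL, -3.02 for SLX1B, -2.26 for MSRA and -1.64 for COG3. The first 4 are listed at 0 in at least 1 library. SPTLC1P1 and AC018638.1 are pseudogenes, and SLX1B, SVIL and COG3 share exon bases with another gene.

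Of the rows lower in AGS and higher in MKN1 it was 1.81 for GGA2, 1.90 for MRPL30, 1.98 for AC012146.7, 4.10 for CKS1B, 4.10 for VARS, 4.43 for CMTM1, 5.16 for CTD-2659N19.2, 8.11 for AC136297.1 and 9.33 for AL136218.1. CKS1B and MRPL30 have 2 rows each in the table, and AC136297.1 and CTD-2659N19.2 are listed at 0 in MKN1 siScramble.

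The mitochondrially encoded genes had a median difference of -1.42, with 13 of 13 higher in AGS siHOXB9 and lower in MKN1 siHOXB9, also not tested.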

How the results depend on the processing

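The limma fit pairs siHOXB9 with siScramble within each line through its line term. No paired analysis was possible by replicate number because each group is 1 library; leaving out a library would leave no change in its line. With a pseudocount of 0.1 FPKM opposite responses numbered 27. At a level of 1 FPKM there were 51 genes alike higher, 74 alike lower, 123 in AGS only, 142 in MKN1 only, 57 opposite and 662 with lines that differed by at least 1; at 10 FPKM MKN1 only held 31, opposite 8 and the last count 200. Asking 2-fold in both lines gave 10 alike higher, 16 alike lower and 11 opposite; asking 1.5-fold gave 38, 67 and 35, with 441 in AGS only and 351 in MKN1 only. Unambiguous genes alone gave 8 alike higher, 16 alike lower, 28 in AGS only, 22 in MKN1 only, 3 opposite and 122 with lines that differed by at least 1. The other counts of these 6 kinds, which sum both directions except for the genes alike, stayed within 1.5 times under these alternatives and under the 3 scalings. Counts of a single direction moved by more under the scalings, as given above for AGS only, MKN1 only, the opposite responses and the differences of at least 1.

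Against 1 call, limma gave 7 with the robust option, 0 without the line term (28 at an unadjusted p under 0.05), 438 without a filter, 62 on rows at 5 FPKM in each line, 0 with a pseudocount of 0.1 FPKM (834 at an unadjusted p under 0.05) and 0 after quantile normalization (1061). The unfiltered fit warned that most variances were 0. For the 90 named genes the difference between the lines, or for genes alike the smaller change, kept its direction and its side of the limit under the pseudocount and the 3 scalings. Even so 8 of the 90 changed class under at least 1 scaling, and 5 of these fell under 2-fold in both lines. Of 24 lists whose median difference lay at least 0.1 from that of all genes, 1 changed direction under an alternative, the angiogenic factors, at -0.10 with a level of 1 FPKM. Of the 10 lists nearer to all genes 5 changed sign under at least 1 alternative. Otherwise 3 lists moved by more than 0.1 at 1 FPKM, 3 at 10 FPKM and 4 among unambiguous genes. Depth limits low rows most.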
